A study of Mus musculus with 40 samples.

Results

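The 10 loci described here hold genes of the Notch signalling pathway, namely the receptors Notch1, Notch2, Notch3 and Notch4, the ligands Dll1, Dll4 and Jag1, and the target genes Hey1, Hey2 and Hes1. A cloned fragment was assigned to a locus when its centre lay inside the RefSeq gene body or within 25 kb of it in the mm10 genome, and overlapping fragments of all libraries were merged into regions. Counted once in every library that held it, a fragment gives 1 entry, and the 10 loci received 795 of the 458486 entries of the screen. These were 588 of 354627 different fragments and lay in 64 of 75060 regions.

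Notch receptors sit in the cell membrane and are bound by Delta-like and Jagged ligands of a neighbouring cell. Binding leads to cleavage by ADAM10 and gamma-secretase, after which the intracellular part of the receptor enters the nucleus and joins the DNA-binding protein RBPJ and a Mastermind co-activator. Hes and Hey genes, which encode basic helix-loop-helix repressors, are classical targets of this complex. In the embryo Notch1 is needed for the emergence of definitive blood stem cells from hemogenic endothelium, and Dll4 and Jag1 are ligands made by arterial endothelium.

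Enhancer activity was measured with Tn5-cut open-chromatin fragments placed before an Hsp68 minimal promoter and Venus-YFP, and integrated at Hprt in HM-1 embryonic stem cells, a mouse line of strain 129/ola whose Hprt gene is non-functional until the insertion repairs it. The cells were differentiated in serum and taken at 5 stages: undifferentiated embryonic stem cells (ES), FLK1+ hemangioblast-like cells (HB), KIT+ TIE2+ CD41- hemogenic endothelium 1 (HE1), KIT+ TIE2+ CD41+ hemogenic endothelium 2 (HE2) and KIT+ TIE2- CD41+ hematopoietic progenitors (HP). Each stage was split by YFP into 4 gates, called High, Medium, Low and Negative, the last set on cells whose reporter carried no enhancer fragment, and 2 replicates gave 40 libraries in 20 groups of 2. All groups share the line, the integration site and the promoter, and nothing in the labels says whether the 2 replicates came from separate transfections. In the comparison of stages p-values therefore measure a spread between libraries that may be technical, and in the other comparisons they rest on fragment counts within sorts. In what follows, a sort is 1 stage of 1 replicate, a positive fragment is one found in any of the 3 gates above Negative, and a fragment is counted once on each side of a sort.

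Depth, which is the number of different fragments of a library, ran from 4869 to 51146 in the 20 libraries of replicate 1 (median 15805) and from 654 to 31915 in those of replicate 2 (median 2750). The 10 loci received 624 entries in replicate 1, 8 to 81 per library, and 171 in replicate 2, 1 to 69 per library, so that replicate 1 and the HE1 Low library of replicate 2 carried most of the data. Some libraries were not independent of each other. In replicate 1 the HE1 Negative library shared 28868 of its 41374 fragments with the HE1 Medium library, and 53 of its 81 entries at the 10 loci were among them. In replicate 2 the ES Medium library shared 2828 of its 4318 fragments with the HE1 Low library, including 14 of its 17 entries at these loci. In HP of replicate 1, by contrast, the Negative library shared 0 of 8458 fragments with the positive gates. Results were also computed without each sort in turn and with fragments found on both sides of a sort removed.

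Of the 64 regions, 32 were centred in introns, 23 between genes, 7 in coding exons and 2 in untranslated parts of exons. The centres lay 1678 to 122380 bp from a curated start site of the member gene (median 17386 bp), and 35 of them lay inside the member gene itself. No entry of the 10 loci was centred within 1500 bp of any curated start site, against 1.84% of all entries. The study separated promoter fragments from distal ones at that distance. The nearest start site of any gene was that of the member in 34 regions, so that nearly as many regions stood closer to another gene. No Hi-C or other contact data were used here, and a region is named by its locus only as a position.

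**Figure D1:**
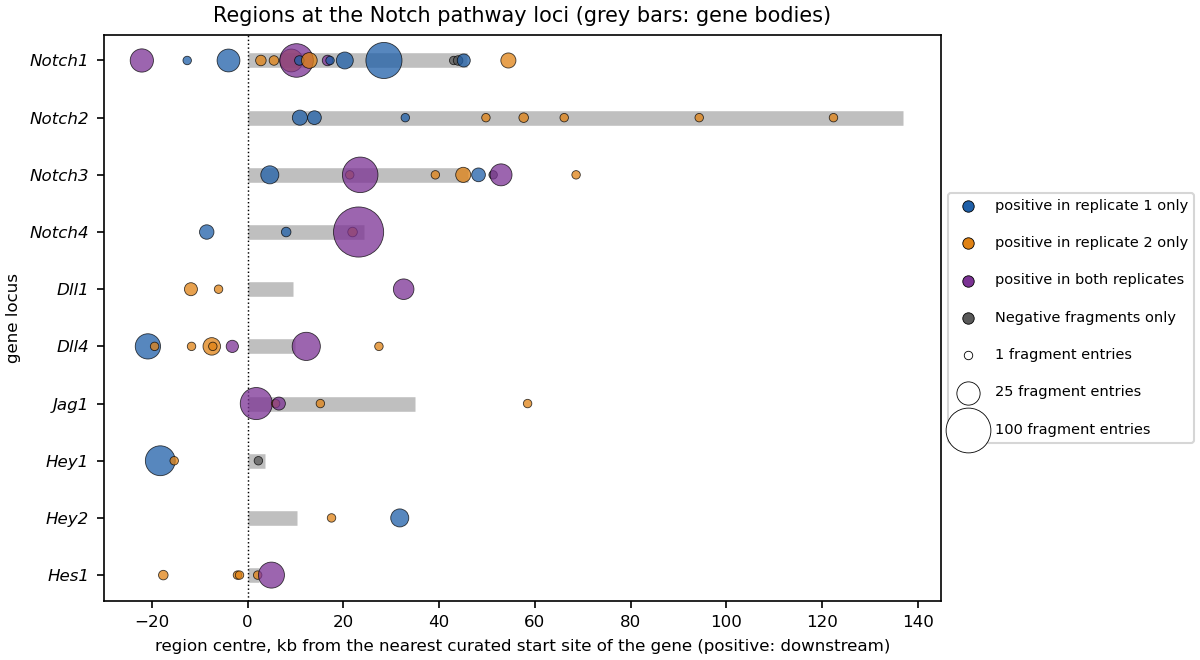
Regions at the 10 Notch pathway loci by the distance of the centre from the start site of the gene in kb, 1 row per gene, with the gene body as a grey bar. The area of a point grows with the number of fragment entries, and colours give the replicates with positive fragments: of 64 regions 17 were positive in replicate 1 only, 31 in replicate 2 only, 12 in both, and 4 held Negative fragments only. In the whole screen these counts were, in the same order, 25003, 32935, 5132 and 11990 of 75060 regions.

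The sequences below are those on which the account turns: the regions with most positive fragments at Notch1, Notch4, Dll4 and Jag1, the only region with at least 20 entries that was seen in replicate 2 alone (Notch1 +9.1 kb), and the Dll4 fragment found in more libraries than any other at these loci. They are the 300 bases around the centre of the region, or the whole region where it is shorter, read from the plus strand of GRCm38 (mm10), and the distance in a name is that of the centre from the gene's start site. Capitals mark matches on either strand to TGGGAA (the core bound by RBPJ), CACGTG (a HES and HEY site), TGACTCA or TGAGTCA (AP-1), GGAATGC or GGAATGT (TEAD), ACAAAGG or ACAATGG (SOX), TGTGGTC or TGTGGTT (RUNX), AGATAAG (the GATA factors), CAGCTG (an E-box) and GAGGAAGT (PU.1). Of these, TGGGAA and the TEAD words can share the letters GGAA.
Notch1 +28.5 kb, chr2:26475185-26475484: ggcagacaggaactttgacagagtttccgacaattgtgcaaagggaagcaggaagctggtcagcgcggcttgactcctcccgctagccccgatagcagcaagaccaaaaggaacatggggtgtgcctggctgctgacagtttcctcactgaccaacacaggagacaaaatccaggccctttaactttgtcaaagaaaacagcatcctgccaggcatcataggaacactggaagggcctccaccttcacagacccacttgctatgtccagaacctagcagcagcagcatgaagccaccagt
Notch1 +9.1 kb, chr2:26494534-26494833: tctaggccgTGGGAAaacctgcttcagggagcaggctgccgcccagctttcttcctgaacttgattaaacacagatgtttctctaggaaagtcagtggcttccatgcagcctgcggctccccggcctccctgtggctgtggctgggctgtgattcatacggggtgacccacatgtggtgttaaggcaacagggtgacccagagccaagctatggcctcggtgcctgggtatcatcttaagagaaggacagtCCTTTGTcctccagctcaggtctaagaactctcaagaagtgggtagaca
Notch4 +23.2 kb, chr17:34587340-34587639: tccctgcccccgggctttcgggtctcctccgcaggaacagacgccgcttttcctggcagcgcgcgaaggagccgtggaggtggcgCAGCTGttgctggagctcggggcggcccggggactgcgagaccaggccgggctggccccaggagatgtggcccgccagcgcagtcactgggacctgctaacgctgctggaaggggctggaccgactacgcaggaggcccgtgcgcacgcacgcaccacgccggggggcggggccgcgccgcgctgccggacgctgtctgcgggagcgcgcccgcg
Dll4 -20.8 kb, chr2:119304820-119305119: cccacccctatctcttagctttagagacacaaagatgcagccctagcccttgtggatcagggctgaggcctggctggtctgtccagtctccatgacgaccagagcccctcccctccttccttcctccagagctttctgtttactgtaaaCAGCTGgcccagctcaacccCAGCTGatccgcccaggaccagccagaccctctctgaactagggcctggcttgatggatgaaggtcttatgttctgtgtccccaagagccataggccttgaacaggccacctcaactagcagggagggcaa
Dll4 -7.5 kb, chr2:119318250-119318370: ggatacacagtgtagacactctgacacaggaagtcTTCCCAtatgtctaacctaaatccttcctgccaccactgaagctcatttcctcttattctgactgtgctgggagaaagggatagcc
Jag1 +1.8 kb, chr2:137114541-137114840: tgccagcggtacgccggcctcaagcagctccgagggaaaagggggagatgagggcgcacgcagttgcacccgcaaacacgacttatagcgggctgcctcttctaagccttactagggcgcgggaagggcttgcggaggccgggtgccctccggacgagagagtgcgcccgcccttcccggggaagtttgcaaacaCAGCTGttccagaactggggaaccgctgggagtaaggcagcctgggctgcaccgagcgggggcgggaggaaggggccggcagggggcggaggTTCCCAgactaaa
The short Dll4 fragment, the Notch1 +9.1 kb window and the Jag1 window held 1 RBPJ core each, and the Dll4 -20.8 kb window held 2 E-boxes. No match was found in the Notch1 +28.5 kb window, which says only that these letters were not in those 300 bases.

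Notch1, the receptor best known for its role in blood stem cell emergence, had the most positive fragments of the 10 loci. There were 185 positive and 54 Negative fragments in 17 regions. Positive fragments numbered 8 in ES, 23 in HB, 45 in HE1, 39 in HE2 and 21 in HP of replicate 1, and 10, 6, 33, 0 and 0 in the same stages of replicate 2. The Negative gate gave 2, 6, 27, 5 and 2 in replicate 1 and 1, 0, 0, 0 and 11 in replicate 2. Thus both replicates had their highest positive count at HE1, the stage with the deepest sorts, and the late stages of replicate 2 gave none.

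The Notch1 region with most positive fragments lay in intron 15 (chr2:26474936-26475733), 28.5 kb downstream of the start site, and its sequence is the first of those above. All of its 64 entries came from replicate 1. Positive fragments numbered 0 in ES, 6 in HB, 19 in HE1, 16 in HE2 and 7 in HP, beside 0, 2, 11, 1 and 2 in the Negative gate. If its 48 positive fragments had followed the depth of the sorts, 4.81 would have fallen in ES, so that the region was covered from HB onward but not in ES cells. The positive count as a whole was close to the 50.5 expected from its positive and Negative fragments together, split in each sort by the depth of the gates.

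A group of regions in intron 2 of Notch1 followed. The largest, 10.2 kb downstream of the start site, held 44 positive fragments, 6, 7, 12, 12 and 1 in the stages of replicate 1 from ES to HP and 2, 1, 3, 0 and 0 in replicate 2, against 10 Negative ones. It was positive at ES, HB and HE1 in both replicates. Its neighbour (chr2:26494481-26494885, 9.1 kb downstream) was the only one of the 13 best covered regions without a Negative fragment, with 24 positive fragments, all of replicate 2, of which 6 came from ES, 1 from HB and 17 from HE1. By gate these were 17 Low, 7 Medium and 0 High entries.
All 17 different fragments of this region, however, ended at the same base, chr2:26494885, and their other ends were spread over 34 bp in steps of 2 bp at the median. The 6 fragments of the ES Medium library were all among the 17 of the HE1 Low library. Such groups of fragments with 1 common end were a feature of replicate 2: 40 of its 171 entries at the 10 loci (23.4%) shared an exact end with at least 2 others of the same library, against 3 of 624 (0.481%) in replicate 1, and in the whole screen the shares were 13.1% and 2.48%.

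Upstream of Notch1, a region 3.98 kb before the start site (chr2:26507397-26508203) held 19 positive and 5 Negative fragments, all from replicate 1 and with positive fragments at all 5 stages. A further one 22.1 kb upstream (chr2:26525448-26526354) held 15 positive and 9 Negative fragments and was positive in both replicates at HB and HE1. A minor region of intron 2 at 16.7 kb (chr2:26486958-26487270) had 3 positive fragments, 1 in HB of each replicate and 1 in HE1 of replicate 2, and no Negative one.

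Notch4, a receptor made mainly by endothelium, was dominated by 1 region. The stretch chr17:34586898-34588081, centred in coding exon 30 near the end of the gene and 2.32 kb from the start site of Gpsm3, held 126 entries and 89 of the 97 positive fragments of the locus, the most of the 64 regions. Positive fragments numbered 11 in ES, 12 in HB, 29 in HE1, 14 in HE2 and 14 in HP of replicate 1, close to the 8.01, 11.3, 29.5, 19.8 and 11.5 that the depth of these sorts would give. Replicate 2 added 1 in ES, 1 in HB and 7 in HE1. The Negative gate held 34 fragments, and the entries by gate, both replicates together, were 29 Low, 36 Medium and 27 High. Over the whole locus, replicate 1 gave 22 Low, 37 Medium, 30 High and 37 Negative entries, and replicate 2 gave 9 Low and 1 in each of the other gates.

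Notch3, a receptor of smooth muscle and pericytes, likewise had a main region in the gene body. It was centred in coding exon 24 (chr17:32143067-32143656) and held 43 positive fragments, 8, 3, 14, 10 and 7 in replicate 1 and 1 in HE1 of replicate 2, beside 14 Negative ones, which were 4 in ES, 3 in HB and 7 in HE1 of replicate 1. No Negative fragment was found there in HE2 or HP. A region 52.9 kb downstream of the start site and beyond the gene (chr17:32113345-32114544) held 15 positive fragments in both replicates and 7 Negative ones. The whole Notch3 locus gave 79 positive and 33 Negative fragments.

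Notch2, a receptor with many roles outside the vessel wall, was the most sparsely covered of the 4 receptors although its gene is the longest, with 22 positive fragments and 1 Negative. Its leading region lay in intron 1 (chr3:98024258-98024682, 10.9 kb downstream) and held 9 positive fragments, 3 in ES, 4 in HB and 2 in HP of replicate 1, and none in the Negative gate. The region next to it at 14.0 kb held 6 positive fragments, of which 2 came from HE1, 3 from HE2 and 1 from HP of replicate 1, and 1 Negative fragment. The 2 regions had positive fragments together only at HP. Each of the other 6 regions of this locus held 1 or 2 entries.

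Among the ligands, Dll4 had 64 positive and 20 Negative fragments and was the only locus positive in all 10 sorts. In HE2 and HP of replicate 2 its only positive fragment was the 121 bp fragment described below, also in the Negative gate there. The Dll4 region with most positive fragments lay 20.8 kb upstream between genes (chr2:119304702-119305236), 16.2 kb from the start site of Vps18. It held 26 positive and 3 Negative fragments, all from replicate 1. Positive fragments numbered 5 in ES, 8 in HB, 7 in HE1, 6 in HE2 and 0 in HP, where depth alone would have placed 3.73. By gate there were 4 Low, 11 Medium and 12 High entries. A region 12.3 kb downstream of the start site, past the end of the gene (chr2:119337533-119338564), held 25 positive fragments and 12 Negative ones, was positive at all 5 stages of replicate 1 and in ES and HE1 of replicate 2. A region 3.18 kb upstream (chr2:119322206-119323003) held 5 positive fragments, 1 in ES and 3 in HB of replicate 1 and 1 in HE1 of replicate 2, and no Negative one.

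The Dll4 region 7.47 kb upstream consisted of 1 fragment of 121 bp (chr2:119318250-119318370), found without any change of its ends in 13 of the 20 libraries of replicate 2 and in none of replicate 1. The Negative gate contained it at all 5 stages. The YFP-positive gates contained it at HB, HE1, HE2 and HP, with 4 Low, 3 Medium and 1 High libraries, so that the presence of this fragment in a positive gate was not tied to its absence from the Negative one.

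Dll1 was sparsely covered, with 13 positive and 9 Negative fragments. Its main region lay 32.6 kb downstream of the start site, beyond the gene (chr17:15342965-15343466), and its 19 entries came from 6 different fragments, 1 of which was present in 12 libraries of replicate 2, 5 of them Negative. Replicate 1 gave 1 positive fragment in HB and 4 in HE1, and replicate 2 gave that 1 fragment at HB, HE1, HE2 and HP. Counts at Dll1 thus rested on few different fragments.

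Jag1, the other endothelial ligand, held 41 positive and 15 Negative fragments. Its region in intron 2, 1.83 kb downstream of the start site (chr2:137114190-137115191), contained 34 of the positive ones. They were 4 in ES, 3 in HB, 11 in HE1 and 9 in HE2 of replicate 1, with 0 in HP, and 2, 1 and 4 in ES, HB and HE1 of replicate 2. The Negative gate gave 13 fragments. Neither replicate had a positive fragment at Jag1 in HP. Depth alone would have placed 3.87 of the replicate 1 fragments of the 1.83 kb region there. In replicate 2 the HP sort held only 5208 positive fragments in all, so its count of 0 says little. A smaller region of the same intron at 6.54 kb (chr2:137109745-137110211) was positive at HE1 in both replicates, with 3 and 1 fragments, beside 2 Negative ones.

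The target genes had 1 main region each. Hey1, an arterial Notch target, had 34 of its 35 positive fragments in a region 18.2 kb upstream, inside intron 3 of the non-coding gene Gm32561. All came from replicate 1, 6 in ES, 5 in HB, 14 in HE1, 7 in HE2 and 2 in HP, beside 8 Negative ones. These counts ran close to the 3.41, 4.79, 12.5, 8.41 and 4.87 that depth would give.
Hes1, which is active in many stem cells, had 22 of 26 positive fragments in a region 4.99 kb downstream of its start site and past the end of the gene. They were 8 in ES, 3 in HB, 3 in HE1, 4 in HE2 and 2 in HP of replicate 1 and 1 each in HB and HE1 of replicate 2, against 10 Negative ones. ES was the highest count here, where depth alone would give 2.00 in ES and 7.37 in HE1.
Hey2, a partner of Hey1 in arterial identity, had 10 of 11 positive fragments in a region 31.8 kb downstream of its start site (chr10:30810814-30811170), 7.67 kb from the start site of Ncoa7, all from replicate 1 and beside 4 Negative ones.

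**Figure D2:**
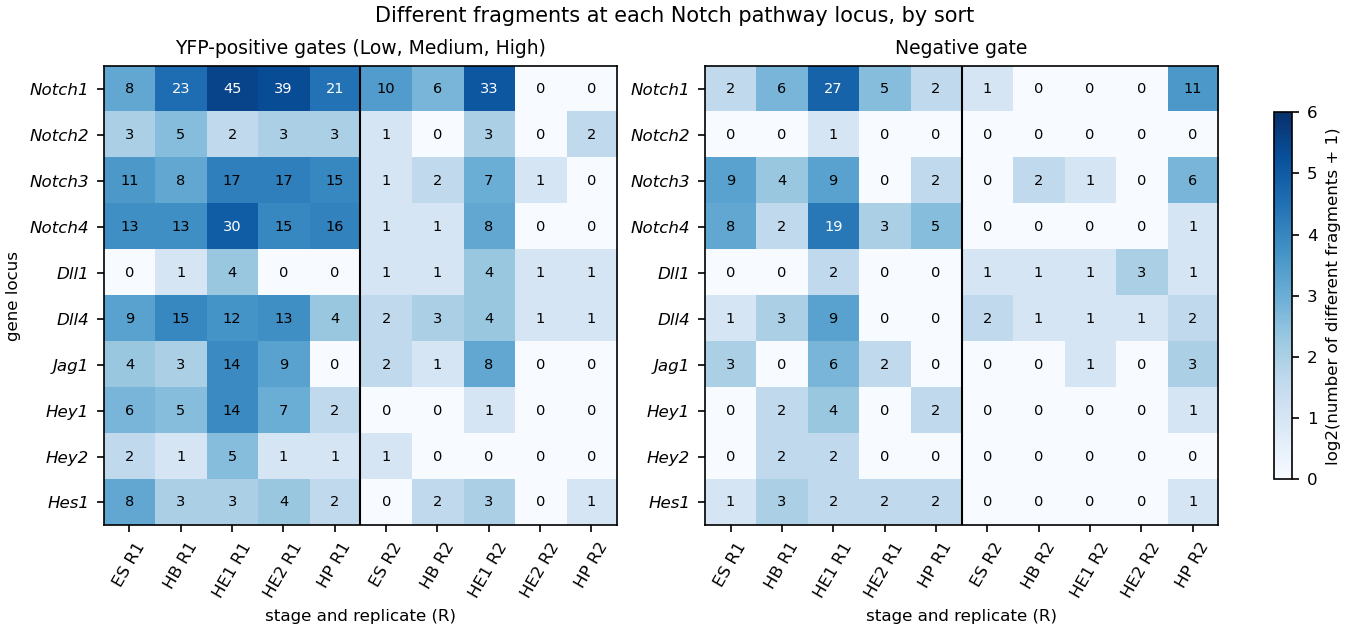
Different fragments at each locus (rows) in each sort (columns; R is the replicate), for the YFP-positive gates on the left and the Negative gate on the right, with the count in each cell and the colour on a log2(count + 1) scale. HE1 of replicate 1 had the highest positive count at Notch1 (45) and Notch4 (30), and the positive gates of HE2 and HP of replicate 2 held 0 to 2 at every locus.

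The first comparison asked whether fragments of a locus were found in YFP-positive cells more often than the depth of positive and Negative libraries would give. It used the test of Cochran, Mantel and Haenszel, stratified by sort and adjusted by the Benjamini-Hochberg method over 8159 protein-coding loci with at least 20 entries. At an adjusted p under 0.05 it called 4 loci, which is 0.049% of those tested, and 276 had an unadjusted p under 0.05. None of the 9 member loci tested was called, and the adjusted p was 1 for each. Hey2, with 15 entries, was not tested.

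The odds ratio, positive over Negative, was 0.942 at Notch1 (95% interval 0.675 to 1.31), 0.702 at Notch3 (0.452 to 1.09) and 0.713 at Notch4 (0.484 to 1.05). Among the ligands it was 0.555 at Dll1 (0.223 to 1.38), 0.952 at Dll4 (0.561 to 1.62) and 0.797 at Jag1 (0.420 to 1.51). Among the targets it was 1.21 at Hey1 (0.568 to 2.59) and 0.690 at Hes1 (0.337 to 1.41). These intervals all include 1, and those of Notch1, Notch3, Notch4, Dll1, Dll4, Jag1 and Hes1 leave out an odds ratio of 2 or more. Notch2 differed most, with 22 positive fragments where 17.6 were expected and an odds ratio of 7.14 (0.995 to 51.3), which rests on 1 Negative fragment and had an unadjusted p of 0.0369. The interval covers counting error only, since fragments amplified by PCR are not independent molecules. Over the 9 loci the median of positive fragments over expected ones was 0.953, with 2 loci above 1, and over all loci tested it was 1.00, with 51.2% above 1.

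**Figure D3:**
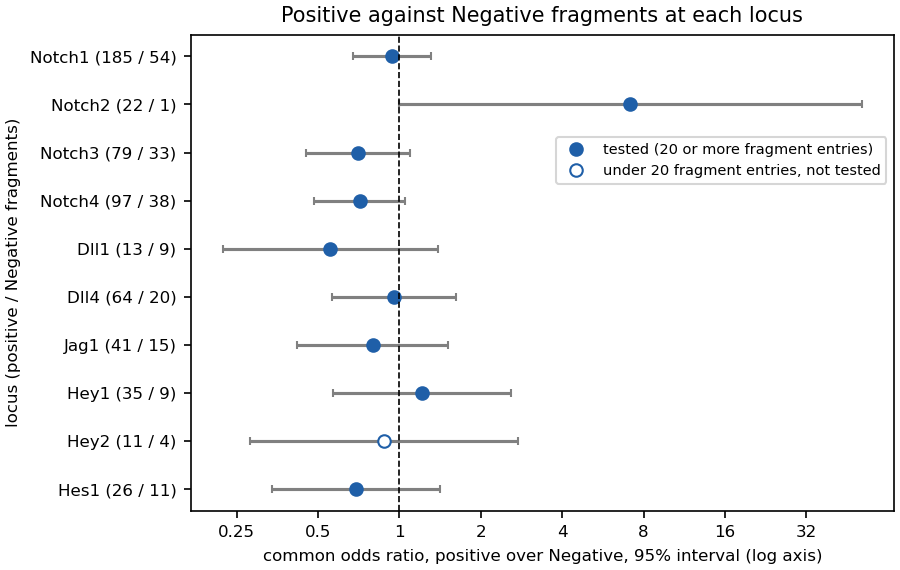
Common odds ratio of positive against Negative fragments at each locus with its 95% interval, on a log axis, with both counts beside the gene. All intervals cross 1; Notch2, with 22 positive fragments and 1 Negative, stands furthest to the right at 7.14.

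All 10 loci together took 0.162% ± 0.0489 (SD, n = 10 sorts) of the positive fragments and 0.172% ± 0.0438 of the Negative fragments. The difference, positive minus Negative, was -0.0104 percentage points ± 0.0516, smaller than its spread, and the positive share was the higher one in 5 of 10 sorts. In replicate 1 the mean difference was -0.0188 and in replicate 2 it was -0.00195. The 95% Wilson intervals of the positive and Negative shares overlapped in every sort, for example 0.143% (0.122 to 0.168) and 0.196% (0.158 to 0.243) at HE1 of replicate 1, where 54 of the 81 Negative fragments at these loci were also found in a positive gate of the same sort.

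**Figure D4:**
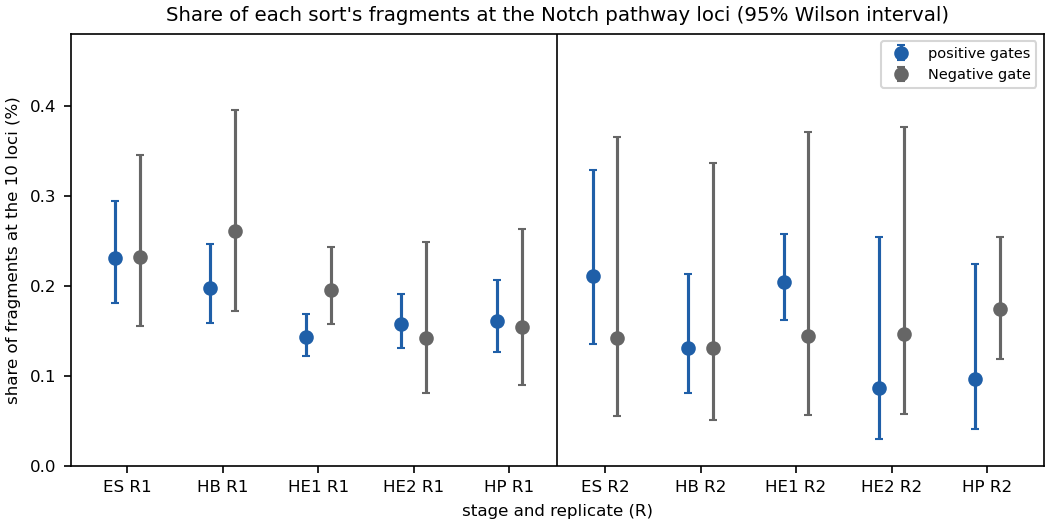
Share of the fragments of a sort that lay at the 10 loci, in percent, for the positive gates (blue) and the Negative gate (grey), with 95% Wilson intervals that cover counting error only. The intervals of the pair overlap in each of the 10 sorts.

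By region, the same test took 5742 regions with at least 20 entries and called 12, or 0.209%, with 202 at an unadjusted p under 0.05. Of the 64 regions of the Notch pathway loci, 13 reached 20 entries and none was called. The lowest unadjusted p among them was 0.125, at the Notch1 region 9.1 kb downstream described above, whose 24 positive fragments compared with 21.1 expected. The Dll4 region 20.8 kb upstream had the highest ratio of observed to expected, 26 against 22.8, with an odds ratio of 2.43 (0.724 to 8.17). At the Notch4 exon 30 region 89 positive fragments compared with 96.0 expected, and the odds ratio was 0.726 (0.484 to 1.09).

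**Figure D5:**
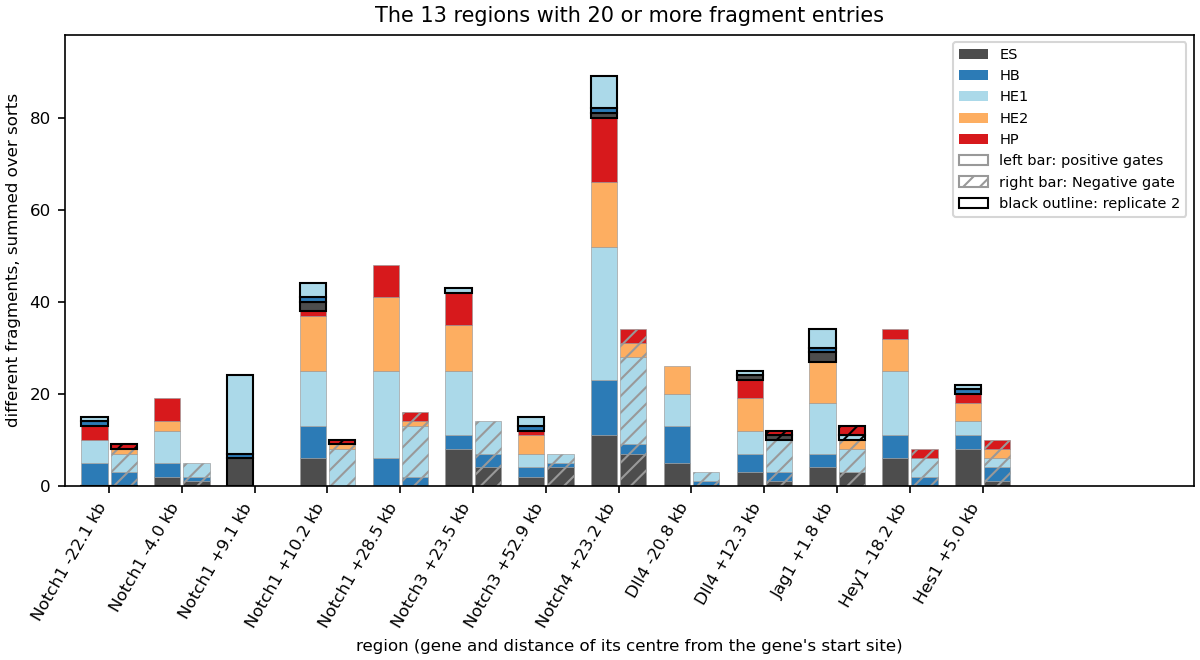
Positive (left bar) and Negative (hatched right bar) fragments of the 13 regions with at least 20 entries, summed over the 10 sorts, coloured by stage, with replicate 2 outlined in black. The Notch4 region at 23.2 kb is the tallest with 89 positive fragments, and the Notch1 region at 9.1 kb is made of replicate 2 alone.

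The 64 regions were better covered than the average region of the screen. A share of 20.3% had at least 20 entries, against 7.65% of all regions, 40.6% rested on 1 entry, against 55.0%, and the median width was 398 bp against 264 bp. Positive fragments in both replicates were found in 12 regions (18.8%, against 6.84% of all), in 11 of them at the same stage. The exception was the Dll4 region 3.18 kb upstream, which was positive at ES and HB in replicate 1 and at HE1 in replicate 2. Without the HE1 Low library of replicate 2 the number was 10, and it was 12 without the HE1 Medium and HE1 Negative libraries of replicate 1. These shares are given as a description, since whether a region is seen in both replicates depends on how many fragments it received.

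Positive fragments were found at 1 stage only in 31 of the 60 positive regions (51.7%, against 61.6% in the whole screen). They were found at all 5 stages in 9 of the 60, against 4664 of 63070 in the whole screen. Positive regions numbered 41 at HE1, 30 at HB, 23 at ES, 23 at HP and 21 at HE2. HE1 was thus the stage with most of them, of which 33 were seen in replicate 2 and 18 in replicate 1, and it was also the stage with most fragments.

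Identical fragments linked libraries at these loci as elsewhere. Of the 588 different fragments, 116 (19.7%) were found in more than 1 library, against 19.0% in the whole screen. Of these 116, 83 (71.6%, against 63.4%) were present in the Negative gate of 1 library and a positive gate of another. Of the 83, 53 were shared by the HE1 Negative and HE1 Medium libraries of replicate 1. In the whole screen that pair shared 28868 of the 42828 such fragments. Of the 588, 62 were present at more than 1 stage, against 37003 of 354627 in the whole screen. Fragments with the same 2 ends in both replicates numbered 11 (1.87%, against 0.956% in the whole screen). A fragment of 395 bp in the Notch4 exon 30 region (chr17:34587235-34587629), for example, was present in 8 libraries of both replicates, 2 of them Negative.

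The comparison of stages tested, for each locus with at least 20 positive fragments, whether the positive fragments per 10000 differed between the 5 stages (F-test of limma on log2 values with 0.5 added). Of 6922 loci none was called (0%), and 8 had an unadjusted p under 0.05. That is far fewer than a well calibrated test would place there if no locus differed. The test, with 2 replicates of unequal depth per stage, was thus conservative here. The absence of calls does not show that the stages were alike. The 8 members tested all had an adjusted p of 1.00, and none had an unadjusted p under 0.05. Notch1, the member with the lowest unadjusted value, had 2.89 positive fragments per 10000 in ES, 5.90 in HB, 4.41 in HE1, 5.70 in HE2 and 5.29 in HP of replicate 1, and 11.1, 4.91, 9.48, 0 and 0 in replicate 2. The replicates therefore differed in opposite directions at ES, where replicate 1 had its lowest value and replicate 2 its highest. The ES value of replicate 2 rested on 10 fragments. Of these, 6 shared a common end in intron 2 and were also in the HE1 Low library of replicate 2. Hes1 was highest at ES in replicate 1, at 2.89 against 0.294 to 0.770 at the other stages, but had none at ES in replicate 2.

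The comparison of the High with the Low gate asked whether fragments of a locus drove stronger YFP. Over 5142 loci with at least 20 High and Low entries it called 1, or 0.0194%, and 256 had an unadjusted p under 0.05. Of the 5 members tested none was called. Notch1 had 37 High entries where 46.3 were expected and 74 Low ones, an odds ratio of 0.599, with an adjusted p of 0.959 and an unadjusted p of 0.0410. Of the 74 Low entries 37 came from replicate 2, which held 3 of the 37 High entries, and 17 of those 37 Low entries were the fragments with a common end in intron 2. With fragments sharing an end counted once, High over expected was 0.821 in place of 0.799. Jag1 had 11 High and 20 Low entries (odds ratio 0.556), and its High over expected went from 0.783 to 0.436 without HE1 of replicate 1. Without all of replicate 1 this ratio was 0.596 at Dll4 and 0.583 at Notch3. Notch4 had 31 and 31 entries (0.769), Dll4 22 and 20 (1.02) and Notch3 31 and 21 (1.40), and the adjusted p of all 4 was 1. With the replicates of a stage pooled into 1 stratum, the test called Notch1 (High over expected 0.671, Benjamini-Hochberg adjusted p = 0.0440), as 1 of 95 among the 5142 loci. Pooling no longer compares the gates within a sort, and the depth of the gates differed between replicates. At HE1 the High and Low libraries held 39123 and 15458 fragments in replicate 1, and 1413 and 31915 in replicate 2.

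For the shares that follow, a window was always the 300 bases around the centre of a region. In shorter regions it took in bases outside the fragments, and the median width in the whole screen was 264 bp. The RBPJ core TGGGAA was found in the windows of 22 of 64 regions (34.4%), against 28.3% of the 75043 regions of the screen on assembled chromosomes. CACGTG was found in 9.38%, against 4.57%, SOX words in 17.2% against 12.4%, CAGCTG in 21.9% against 19.7%, TEAD words in 10.9% against 9.71% and AP-1 words in 9.38% against 9.77%. RUNX words were found in 7.81% against 12.9%, and the PU.1 word in 3.13% against 3.60%. The GATA word was in 0 of the 64 windows, against 5.84% of all. A match is a description of the letters only, and no test was made. The windows of the 64 regions had a median GC content of 55.7%, against 49.3% in all.

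Other genes of the pathway were covered in the same way. A list of 42 genes held the RBPJ and Mastermind complex, the proteases and gamma-secretase subunits, Fringe glycosyltransferases, further ligands and targets, and modifiers of the receptor. In the comparison of positive with Negative fragments 26 had at least 20 entries and none was called, with 18 of the 26 above the expected count and a median ratio of 1.03. The highest odds ratio was that of Mib2, a ubiquitin ligase that acts on ligands, at 2.57 (0.674 to 9.78), with 22 positive and 3 Negative fragments. The lowest was that of Spen, a co-repressor that binds RBPJ, at 0.636 (0.382 to 1.06), with 55 and 25. No gene of the list was called between stages, of 24 tested, or between High and Low, of 18 tested.

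Of 6921 loci with at least 20 positive fragments, Meak7, Btbd7 and Mdm4 had values over the 10 sorts most like those of Notch1, with Pearson's r of 0.949, 0.942 and 0.933. Within the 5 sorts of replicate 1 the r was 0.301, 0.979 and 0.707. The likeness of Meak7 therefore lay mainly in replicate 2, whose ES and HE1 sorts share fragments, and these correlations are descriptions over sorts of unequal depth.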

How the data were processed

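Each library was deposited as a list of fragment positions on the genome, without read numbers. Per the methods of the study and the submitters' processing notes, the authors used Trim Galore for trimming, Bowtie2 for alignment to mm10 and SAMtools for filtering, removed duplicates, and used bedtools and HOMER for the filters on background, open chromatin and promoters. For the enhancer screen the versions, and which of the last filters the deposited lists had passed, are not given in the sources used here. The methods name versions of Bowtie2 and HOMER only for ATAC-seq. Depth is the number of fragments of a library, so reads per fragment are unknown, and fragments amplified without molecular identifiers are not independent molecules.

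Fragments were 66 to 599 bp long. The reference was GRCm38, whose chromosome names and lengths fitted all fragments other than those on 2 scaffolds. Places came from curated RefSeq transcripts. The loci, pathway list, motifs and tests were chosen with earlier results of these data known. All 10 loci are named, with the region of most positive fragments at each and every region positive in both replicates, other pathway genes only when called or at the highest and lowest odds ratio, and the 3 loci most like the best covered member. Further regions named were the 7.47 kb and 20.8 kb upstream regions of Dll4, the Notch1 regions at 9.1 kb and 3.98 kb and the Notch2 region at 14.0 kb, some of them chosen after their values were seen.

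Libraries were grouped by title. Positive was compared with Negative, and High with Low, by the Cochran-Mantel-Haenszel test with continuity correction (Python 3.11.15, scipy 1.17.1) over sorts as strata. Stages were compared with limma 3.58.1 in R 4.3.3. Both were also run on simulated independent fragments, with large changes at well covered loci only. That simulation held no shared ends and no fragments shared between libraries, so it cannot vouch for the tests on these data. Replicate numbers were taken to pair the libraries. The deviations of replicates from their stage means correlated in each of 10 pairs of stages (r 0.280 to 0.457 over 6922 loci). They also correlated in each of 5 pairs of positive with Negative values (0.303 to 0.472). The 2 replicates differed in depth, which can also give such correlations, so these values cannot show that the pairing is right. Sequences were read with samtools 1.23.1. Some sequences are not reported here.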

Additional observations from a re-analysis of the deposited data

How the results depend on the processing

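The alternatives were no continuity correction, other minimum counts, windows of 10 and 50 kb, and fragments over 1500 bp from a start site. Further ones were fragments merged or removed, limma and each sort left out. No member locus or region that was tested was called in any of them, with 1 exception. Without the replicate block, where gates are not compared within a sort, Notch1 passed between High and Low (High over expected 0.671, Benjamini-Hochberg adjusted p = 0.0440, among 95 loci called there). Members with too few fragments under a setting were not tested there. Among these were Dll1 and Hey1 with 10 kb and Dll1 with fragments on both sides removed. The Notch1 region at 9.1 kb was not tested with fragments within 5 bp collapsed or shared ends counted once. With the replicate block, the paired stage fit called 0 loci, as did all other settings of it. The counts over all loci or regions moved more. For positive against Negative loci they were 8 with no replicate block, 0 with fragments within 5 bp collapsed, 0 with fragments sharing an end counted once (chosen after seeing the data), 11 with fragments on both sides removed, 7 at a minimum of 10, 10 with 50 kb, 2 with limma, and 2 to 5 with 1 sort or replicate left out. For regions they were 30, 0 and 0 in the first 3 of these, 0 with limma, and 5 to 20. For High against Low they were 95, 0 and 0, 0 with limma, and 0 to 24. The difference in share ran from -0.0188 to -0.00195 without a replicate. Values near 1 changed side. Observed over expected positives became 1.01 for Notch1 with no replicate block and 1.01 with 10 kb, 1.00 for Dll4 with shared ends counted once and 0.984 for Hey1 with 50 kb, and with limma the fold was 1.12 for Dll4, 1.06 for Hes1, 1.06 for Jag1, 1.51 for Notch1 and 1.18 for Notch4. The limma fold, positive over Negative, is not the same measure as observed over expected, since the expected count includes the positive fragments. For Notch2 the limma fold was 2.28 (limma adjusted p = 0.199), observed over expected 1.25 and the odds ratio 7.14. For the Notch1 region at 10.2 kb these 3 values were 1.89, 1.04 and 1.28. At 9.1 kb the limma fold was 1.82 and observed over expected 1.14, and without a Negative fragment no finite odds ratio could be given. Among regions, observed over expected became 1.01 for Notch3 at 23.5 kb with shared ends counted once. It became 1.00 for Notch1 at 28.5 kb with both sides removed. With limma the fold of a region was 1.10 and 1.19 for Notch3 at 52.9 and 23.5 kb. It was 1.30 for Notch4 at 23.2 kb and 1.03 for Jag1 at 1.83 kb. In the comparison of gates, High over expected was 0.998 for Dll4 with no replicate block. The limma fold, High over Low, was 0.711 for Dll4 and 0.950 for Notch3. With 1 sort or replicate left out, observed over expected positives ran from 0.861 to 1.05 at Dll4, 0.817 to 1.23 at Hes1, 0.844 to 1.09 at Hey1, 0.968 to 1.05 at Notch1 and 0.906 to 1.08 at Notch4. At regions it ran from 0.743 to 1.16 for Hes1 at 4.99 kb, 0.793 to 1.13 for Notch3 at 52.9 kb, 0.935 to 1.08 for Notch3 at 23.5 kb, 0.910 to 1.12 for Notch4 at 23.2 kb, 0.997 to 1.10 for Hey1, 0.757 to 1.01 for Notch1 22.1 kb upstream and 0.974 to 1.05 for Notch1 3.98 kb upstream. High over expected ran from 0.596 to 1.10 at Dll4, from 0.583 to 1.16 at Notch3 and from 0.436 to 0.868 at Jag1. The cause was not tested. Of the 9 loci tested, the widest interval of the odds ratio, at Notch2, rested on 1 Negative fragment, and Hey2 had too few entries to be tested.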
